A study of Mus musculus with 8 samples.

Results

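The 7 mouse sirtuin genes, Sirt1 to Sirt7, were followed from 6 to 24 months of age in the brain. They were picked by name: the gene identifiers of a count table of 22430 genes were matched to GENCODE symbols, which succeeded for 22281 of them, and all 7 sirtuins were found. RNA came from male C57Bl/6JRj mice, 4 young adults (6m) and 4 aged animals (24m), and age is the one difference between the groups that the labels give. The labels call the tissue whole brain in one place and a brain hemisphere in another, and each library is a lysate of all its cells. Polyadenylated RNA was sequenced as directional libraries, 1 per animal. In such bulk samples fewer cells of a type and less RNA per cell cannot be told apart.

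Sirtuins are enzymes that remove acetyl and other acyl groups from lysines and consume nicotinamide adenine dinucleotide (NAD) in doing so, which ties protein acetylation to the metabolic state of the cell. Sirt1, Sirt6 and Sirt7 are mainly nuclear and act on histones, transcription factors and ribosomal RNA gene transcription. Sirt2 is mainly cytosolic, deacetylates tubulin and is abundant in oligodendrocytes, the myelin-forming cells. Sirt3, Sirt4 and Sirt5 sit in mitochondria, where Sirt3 is the main deacetylase, Sirt4 has weak deacetylase and other lipoamidase and ADP-ribosyltransferase activities, and Sirt5 removes succinyl, malonyl and glutaryl groups.

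All 7 genes encode one catalytic core. Shown here are the 30 coding bases that begin with its NAD-binding motif, which all 7 genes share although their levels and their change with age differed. The motif, glycine, alanine, glycine, isoleucine or valine, then serine, was found once in the translated canonical transcript of each gene, and capitals mark its 15 bases, written 5′ to 3′ on the coding strand (GENCODE transcripts and genome build GRCm39).
Sirt1: GGAGCTGGGGTTTCTgtctcctgtgggatt
Sirt2: GGAGCCGGAATCTCCacgtccgcgggtatc
Sirt3: GGGGCCGGCATCAGCacacccagtggcatc
Sirt4: GGCGCGGGGATCTCCaccgagtccggcatc
Sirt5: GGGGCTGGCGTTAGTgcggagagtggggtt
Sirt6: GGCGCCGGCATCAGCaccgcctctggcatc
Sirt7: GGCGCTGGAATCAGCacagcagcttctatc
These bases are exonic and coding in every gene. Those of Sirt3 (chr7:140457881-140457910), Sirt4 (chr5:115620967-115620996) and Sirt6 (chr10:81462335-81462364), all on the minus strand, lie in exon 2 of each gene, and those of Sirt5 (chr13:43525364-43525393, plus strand) in exon 3. The stretch runs across an intron in Sirt1 (chr10:63167656-63171423, minus strand, exons 3 and 4), Sirt2 (chr7:28476306-28476431, plus strand, exons 4 and 5) and Sirt7 (chr11:120513026-120515333, minus strand, exons 3 and 4). Over the 30 bases, Sirt3 and Sirt6 were the most alike pair with 25 identical positions, and Sirt1 with Sirt7 and Sirt2 with Sirt5 the least alike with 12. Valine stands in the motif of Sirt1 and Sirt5 and isoleucine in the other 5.

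Library totals were 63460940 to 103462414 counts. Values are given as counts per 1000000 (CPM) after scaling each library by its TMM factor (trimmed mean of M values). Ages were compared with the quasi-likelihood test of edgeR over 16730 genes, those in which 4 or more of the 8 libraries had over 5 counts. The adjusted p is the Benjamini-Hochberg value over all of these genes, with 0.05 as its threshold, and a log2 fold change of 0.58 in either direction was the second threshold. The library 24m replicate 1 stood apart, with a mean Spearman correlation across genes of 0.979 with the other 24m libraries and 0.978 with the 6m libraries, against 0.995 among the other 24m libraries. Each sirtuin is therefore also given without it. That fit raised the genes lower at both thresholds from 3058 to 3661 and those higher from 4237 to 4644. Markers of brain cell types were detected throughout and none was at 0. Over the 4 libraries of each age, the summed CPM of 10 neuronal markers (4660 to 5129 in 6m, 5494 to 5798 in 24m) and of 6 oligodendrocyte precursor markers (186 to 233 and 265 to 313) was higher in 24m, and that of 7 endothelial markers (73.7 to 109.0 and 43.1 to 66.1) and of 5 blood markers (5426 to 7605 and 1242 to 4156) was lower, each sum without overlap (exact permutation p = 0.0286, two-sided, the smallest 4 against 4 libraries allow). Within a list single markers could differ from the sum. Of the 10 neuronal markers 6 were higher and 2 lower at the adjusted p. Of the 7 endothelial markers 2 were higher and 2 lower at both thresholds. Of 9 astrocyte markers 6 were higher and 1 lower at the adjusted p (median log2 fold change 1.15) although their sums overlapped. The 6 precursor markers were Pdgfra, Cspg4, Vcan, Sox10, Olig1 and Olig2, of which Sox10, Olig1 and Olig2 are not limited to precursors. The 13 mitochondrially encoded genes fell from 6.07 ± 0.555% to 3.33 ± 0.241% of counts (SD, n = 4 each, exact permutation p = 0.0286). The part of these shifts in the sirtuin values was not tested.

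Sirtuins mostly fell with age. All 7 passed the filter on low counts. Of the 7, Sirt3, Sirt4, Sirt5, Sirt6 and Sirt7 were lower in 24m at the adjusted p, Sirt1 was higher, and Sirt2 did not pass. Among all genes tested, 29.9% were lower and 32.7% higher at the adjusted p, so a change in either direction was common in these brains. With the fold-change threshold added, Sirt3 and Sirt7 were still called lower and Sirt1 higher, beside 18.3% of all genes lower and 25.3% higher. These calls at both thresholds were not stable to single libraries: without 24m replicate 4 neither Sirt3 nor Sirt7 passed both, without 6m replicate 4 or 24m replicate 2 or 3 only Sirt7 did, and without 6m replicate 1 or 24m replicate 2, 3 or 4 Sirt1 did not. The median log2 fold change of the 7 sirtuins was -0.41, against -0.0034 over all genes tested. In 5 of the 7 the CPM of every 24m library lay below that of every 6m library, a pattern that 26.8% of all genes showed.

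**Figure D1:**
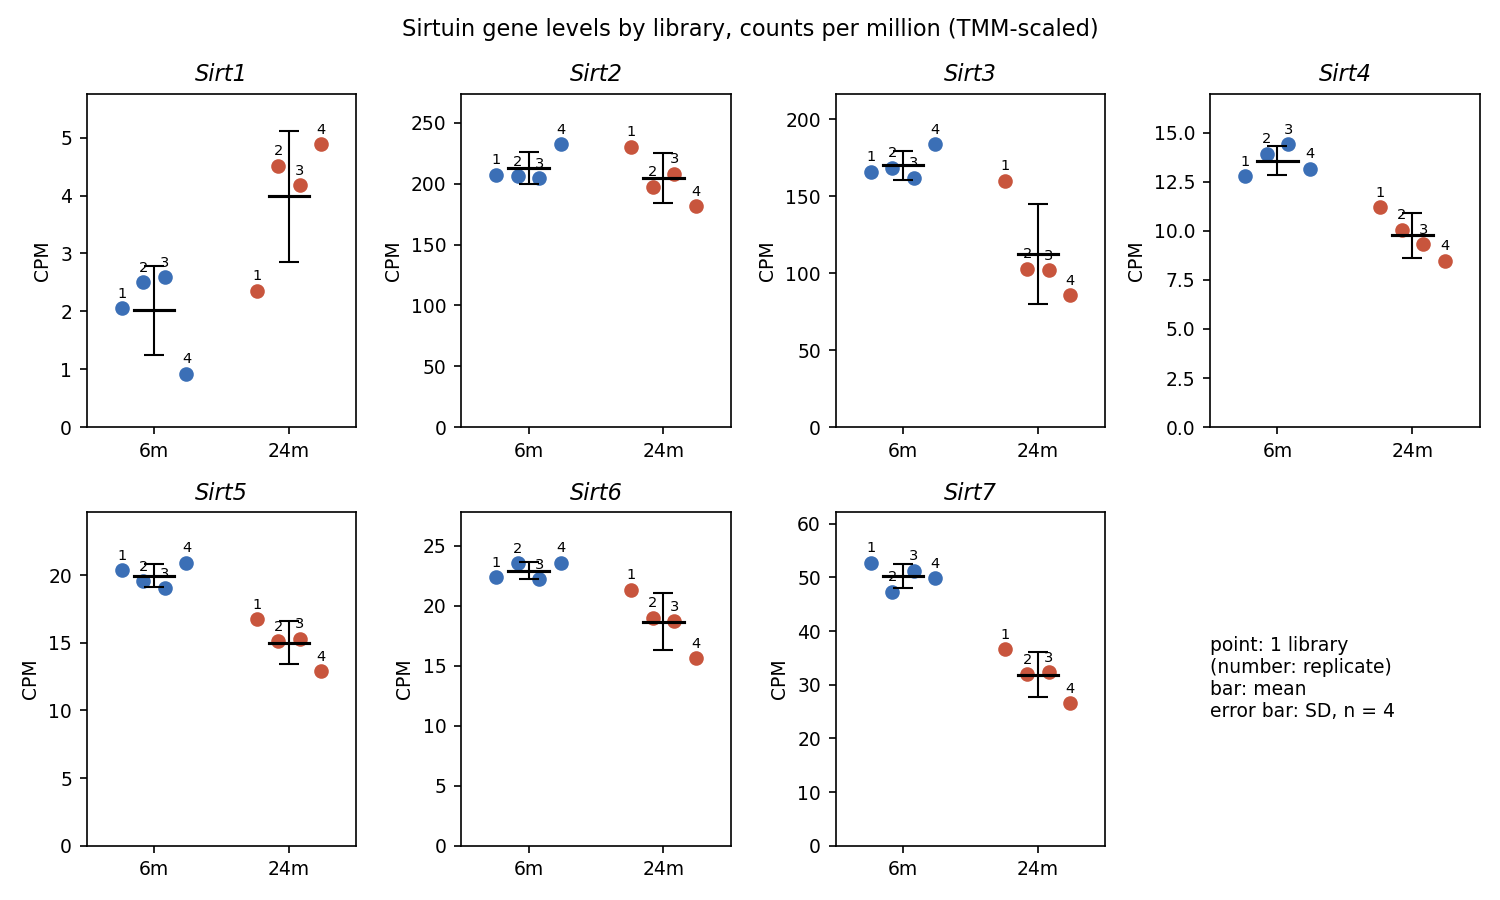
CPM (TMM-scaled) of each sirtuin gene in every library, 6m in blue and 24m in red, each point marked with its replicate number; bars are the mean and error bars the SD (n = 4). The ages do not overlap for Sirt3 to Sirt7, and 24m replicate 1 is the 24m library closest to the 6m values in those 5 genes and in Sirt1.

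Among the nuclear sirtuins, Sirt1 was the only one to rise. Sirt1 (ENSMUSG00000020063, chr10:63154581-63217483) deacetylates p53, FOXO factors and PGC-1α and is the sirtuin most studied in ageing. It had 135, 177, 156 and 61 counts in 6m replicates 1 to 4, or 2.06, 2.50, 2.59 and 0.923 CPM. In 24m replicates 1 to 4 it had 244, 362, 348 and 426 counts, or 2.36, 4.52, 4.18 and 4.88 CPM. The 24m replicate 1 value lay within the 6m range and the other 24m libraries above it, while 6m replicate 4 was the lowest of all 8. The mean rose from 2.02 ± 0.766 to 3.98 ± 1.12 CPM, a 1.97-fold difference (log2 fold change 0.98 ± 0.32 SE, edgeR adjusted p = 0.0236). Sirt1 had the widest error of the family, with a 95% interval of the log2 fold change from 0.26 to 1.70. Leaving out 6m replicate 1 or 24m replicate 2, 3 or 4 brought its adjusted p to between 0.0524 and 0.0585, whereas without 24m replicate 1 it changed by 1.17 on the log2 scale (edgeR adjusted p = 0.00273). The rise was smaller with the GC trend removed (0.72) and in DESeq2 on quantile-normalized counts (0.66). It was larger with library totals in place of TMM factors (1.20), and all of these were called.

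Sirt6 (ENSMUSG00000034748, chr10:81455262-81463631), a histone H3 deacetylase that takes part in DNA repair and in restraining glycolytic genes, had the smallest fall of the 5 that fell in this fit. Its CPM was 22.4, 23.6, 22.2 and 23.6 in 6m and 21.4, 19.0, 18.7 and 15.7 in 24m. The gap between the ages, from 22.2 in 6m replicate 3 to 21.4 in 24m replicate 1, was narrow. The level was 18.5% lower in 24m (log2 fold change -0.30 ± 0.10 SE, edgeR adjusted p = 0.0306), under the fold-change threshold. This call did not hold in 7 of the 8 fits that left out 1 library, with adjusted p of 0.0537 to 0.0701, nor with library totals in place of TMM factors (log2 fold change -0.08, adjusted p = 0.428). The replicate block also lost it (-0.30, edgeR adjusted p = 0.0637). With the length trend removed (-0.47) and in DESeq2 on quantile-normalized counts (-0.45) the fall was larger, and with the GC trend removed it was smaller but called (-0.19). It held without 24m replicate 1 (log2 fold change -0.36, edgeR adjusted p = 0.00452).

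Sirt7 (ENSMUSG00000025138, chr11:120509197-120516066), which promotes transcription of ribosomal RNA genes and deacetylates histone H3, had the largest fall of the 7 in this fit. Sirt3 fell further without 24m replicate 1 and with a length or GC trend removed, Sirt5 with the length trend removed, and Sirt4 in DESeq2 on quantile-normalized counts. The 6m libraries were at 52.7, 47.4, 51.2 and 49.8 CPM and the 24m libraries at 36.7, 32.0, 32.3 and 26.6 CPM. The ages were far apart here, the lowest 6m library lying at 47.4 CPM and the highest 24m library at 36.7 CPM. The level was 36.6% lower in 24m (log2 fold change -0.66 ± 0.10 SE, edgeR adjusted p = 0.000589). Sirt7 passed the adjusted p in all 20 alternatives tried, with log2 fold changes from -0.72 to -0.44, and was at -0.72 without 24m replicate 1.

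Sirt2 (ENSMUSG00000015149, chr7:28466160-28488090) was the only sirtuin that did not pass. Its libraries were at 208, 206, 205 and 232 CPM in 6m and at 230, 198, 208 and 182 CPM in 24m. The ages overlapped, and the highest value of each age, in 6m replicate 4 and 24m replicate 1, was nearly the same. The log2 fold change was -0.06 ± 0.09 SE with a 95% interval of -0.26 to 0.15 (edgeR adjusted p = 0.608), and -0.11 without 24m replicate 1 (adjusted p = 0.199). With library totals in place of TMM factors the direction turned, to 0.16 (adjusted p = 0.0454), and it was above 0 but not called with a GC trend removed (0.03) and by DESeq2 on quantile-normalized counts (0.08). The summed CPM of 12 oligodendrocyte markers, the cells in which Sirt2 is abundant, also overlapped between the ages, with 6m libraries at 3518 to 4378 and 24m libraries at 3820 to 4391 (p = 0.457 by exact permutation, two-sided); 3 of the 12 were higher and 0 lower at the adjusted p.

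All 3 mitochondrial sirtuins fell. Sirt3 (ENSMUSG00000025486, chr7:140443577-140462311), which deacetylates enzymes of the respiratory chain, of fatty acid oxidation and of antioxidant defence, was at 166, 169, 162 and 184 CPM in 6m. In 24m it was at 160 CPM in replicate 1 and at 103, 102 and 85.7 CPM in replicates 2 to 4. The first of these lay just below the lowest 6m library, and the other 24m libraries were far below. The mean level was 33.7% lower in 24m (log2 fold change -0.59 ± 0.17 SE, edgeR adjusted p = 0.0124). Without 24m replicate 1 it was at -0.80 on that scale (edgeR adjusted p = 7.42e-06). The adjusted p passed in all 20 alternatives, among which the value ran from -0.89 with the length trend removed to -0.39 with library totals.

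Sirt4 (ENSMUSG00000029524, chr5:115616065-115622784), which restrains glutamate dehydrogenase and the pyruvate dehydrogenase complex, was at 12.8, 13.9, 14.4 and 13.2 CPM in 6m. The 24m libraries were at 11.2, 10.1, 9.31 and 8.48 CPM. Every 24m library was below every 6m library. The level was 28.0% lower in 24m (log2 fold change -0.47 ± 0.11 SE, edgeR adjusted p = 0.00448). The log2 fold change was -0.54 without 24m replicate 1 and -0.41 without 24m replicate 4. After removal of a trend over gene length, the change was no longer called (-0.17, edgeR adjusted p = 0.133); Sirt4 has the shortest exon union of the 7 (2779 bases). Its value was -0.26 with library totals and -0.72 in DESeq2 on quantile-normalized counts, both called.

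Sirt5 (ENSMUSG00000054021, chr13:43518856-43550487), the desuccinylase of the family, was at 20.4, 19.6, 19.0 and 20.9 CPM in 6m. It was at 16.8, 15.1, 15.3 and 12.9 CPM in 24m. Again no 24m library reached the 6m range. The level was 24.8% lower in 24m (log2 fold change -0.41 ± 0.10 SE, edgeR adjusted p = 0.00553). The log2 fold change was -0.46 without 24m replicate 1 and -0.34 without 24m replicate 4. With library totals in place of TMM factors the call was lost (-0.20, edgeR adjusted p = 0.0619), whereas with the length trend removed the fall was larger and past the fold-change threshold (-0.75, adjusted p = 0.00107), as it was in DESeq2 on quantile-normalized counts (-0.59).

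**Figure D2:**
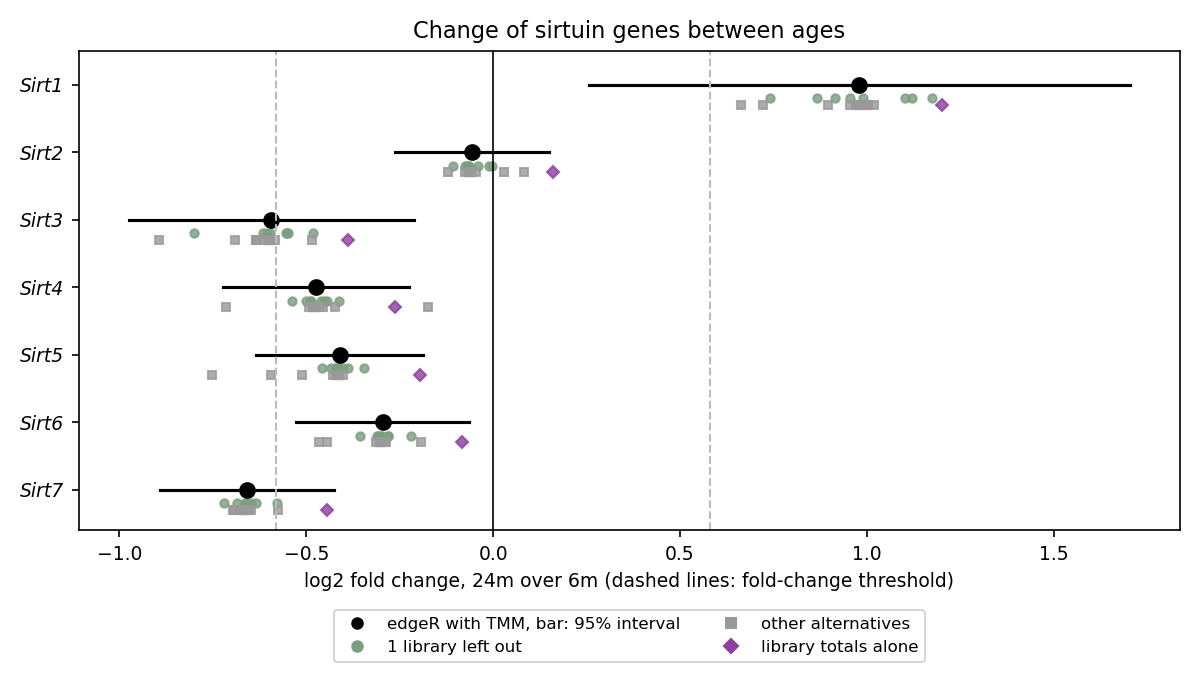
Log2 fold change of each sirtuin gene, 24m over 6m, by edgeR with TMM factors (black, bar: 95% interval), with 1 library left out (green), under other alternatives (grey) and with library totals alone (purple); dashed lines mark the fold-change threshold of 0.58. Library totals alone move every gene towards higher values in 24m, Sirt2 from -0.06 to 0.16 and Sirt6 from -0.30 to -0.08.

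The family can also be read without any scaling factor, as reads per 1000 reads of Sirt2 in the same library, which cancels the library total. On this measure Sirt3 stood at 790 to 817 in the 6m libraries and 472 to 694 in the 24m libraries, and Sirt7 at 214 to 254 and 146 to 162. Sirt4 went from 56.7 to 70.4 in 6m to a range of 44.7 to 50.9 in 24m, Sirt5 from 90.0 to 98.2 to a range of 71.0 to 76.5, and Sirt6 from 101 to 114 to a range of 86.1 to 96.2. All 5 were thus lower relative to Sirt2 in every 24m library than in any 6m library. The same was true of 26.4% of all genes tested, and 25.4% were higher in the same way. Sirt1 reached 3.97 to 12.7 reads per 1000 Sirt2 reads in 6m and 10.2 to 26.9 in 24m, ranges that overlapped through 24m replicate 1.

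The 24m libraries kept nearly one order across the family. Replicate 1 was the highest and replicate 4 the lowest of the 24m libraries in 6 of the 7 genes, Sirt2 to Sirt7, and this order was turned around in Sirt1. TMM factors differed between these libraries too, 1.00 in 24m replicate 1 and 1.13 in 24m replicate 4, against 0.887 to 0.957 in 6m, and the part of the scaling in this order was not tested. In 6m, replicate 4 was the highest in Sirt2, Sirt3, Sirt5 and Sirt6 and the lowest in Sirt1. The closest pair in profile, by root mean square difference of centred log2 CPM over the 8 libraries, was Sirt5 and Sirt6 (0.07), and the farthest was Sirt1 and Sirt3 (1.08).

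Levels of different sirtuins were compared per kilobase of exon union, the summed length of all annotated exons. Sirt2 had the highest level, 38.3 CPM per kilobase over the 8 libraries, followed by Sirt3 (16.1), Sirt7 (7.98), Sirt4 (4.20), Sirt6 (3.12), Sirt5 (1.87) and Sirt1 (0.529). Each gene was above the next in 8 of 8 libraries, by mean log2 differences of 1.30 between Sirt2 and Sirt3, 1.00 between Sirt3 and Sirt7, 0.91 between Sirt7 and Sirt4, 0.42 between Sirt4 and Sirt6, 0.74 between Sirt6 and Sirt5, and 1.97 between Sirt5 and Sirt1. The widest gaps differed between the ages, that of Sirt2 over Sirt3 being 1.01 in 6m and 1.59 in 24m and that of Sirt5 over Sirt1 2.69 in 6m and 1.24 in 24m. The exact sign-flip permutation p was 0.00781 for each of the 6 steps (two-sided, the same after Benjamini-Hochberg adjustment over the 6), the smallest that 8 libraries allow. The order was taken from these same libraries, so this p does not test an order set beforehand. Sirt2 made up 49.4% of the summed level of the family in 6m and 57.8% in 24m, Sirt3 24.5% and 19.4%, and Sirt1 0.456% and 1.12%.

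The order in the middle of the family depended on the length used. Per kilobase of the longest annotated transcript, Sirt4 and Sirt5 could not be told apart (Sirt4 higher in 4 of 8 libraries, exact permutation p = 0.961) and Sirt5 stood above Sirt6. With the canonical transcript, Sirt2 and Sirt3 were at like levels in 6m, 116 ± 7.22 and 118 ± 6.58 CPM per kilobase (SD, n = 4), while in 24m Sirt2 was at 112 ± 11.2 and Sirt3 at 78.5 ± 22.7. Over the 8 libraries that step gave an exact permutation p of 0.125. Sirt4 then fell below Sirt6 and Sirt5. By the canonical transcript Sirt2 made up 39.5% of the summed level in 6m and 48.4% in 24m, and Sirt3 40.2% and 33.3%. The share of Sirt1 was 0.167% and 0.431%. Sirt1 stayed last, and Sirt7 stayed between Sirt3 and the other members, under all 3 lengths.

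**Figure D3:**
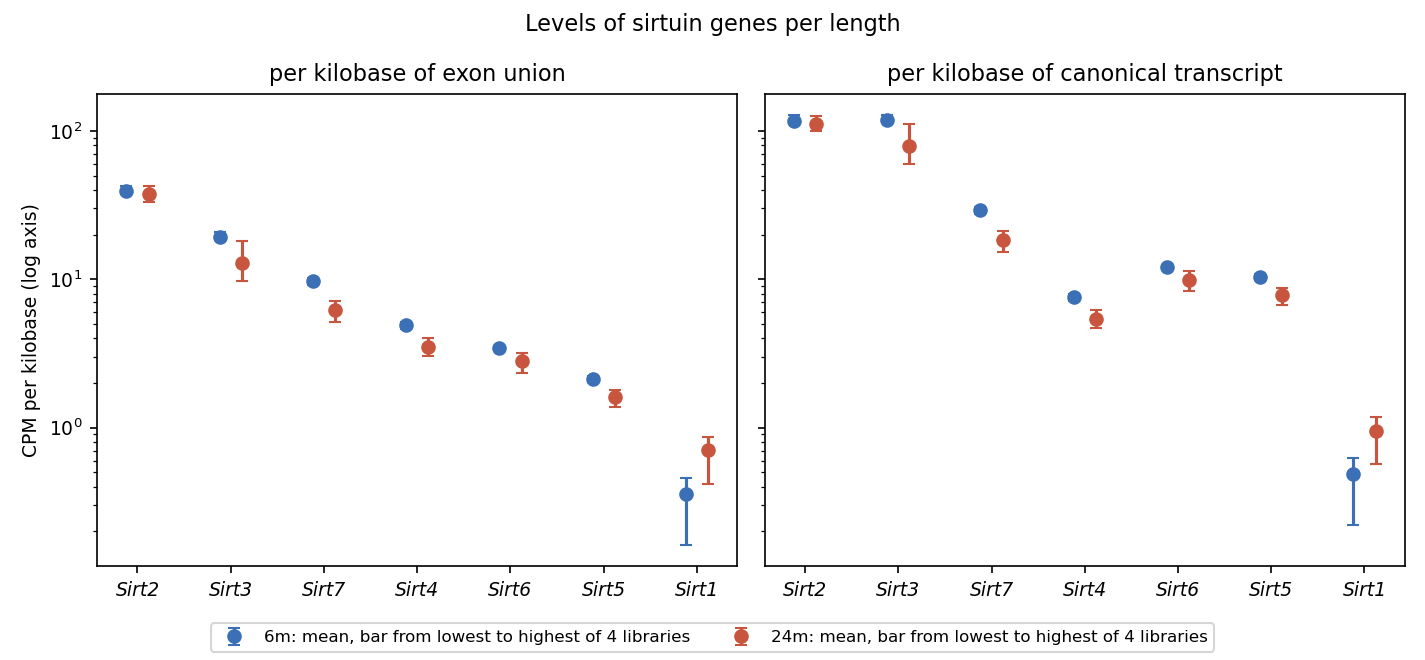
Level of each sirtuin gene in CPM per kilobase on a log axis, per length of the exon union (left) and of the canonical transcript (right), 6m in blue and 24m in red; points are means and bars run from the lowest to the highest of 4 libraries. Sirt2 leads and Sirt1 is last on the left, and on the right Sirt3 is level with Sirt2 in 6m and Sirt4 is below Sirt5 and Sirt6.

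Several sirtuins overlap other genes in their annotated spans, introns included. How reads of shared bases were counted is not given, and for genes on opposite strands this matters only where strand was not used. Sirt3 and Psmd13, a proteasome subunit gene on the other strand, start head to head and share 458 bases, and Psmd13 fell from 249 to 153 CPM (log2 fold change -0.70 ± 0.13 SE, edgeR adjusted p = 0.0014). Sirt3 also shares 709 bases with Ric8a, which did not pass (0.04). Sirt6 overlaps Ankrd24 by 106 bases and BC025920 by 1276 bases, both on the other strand and both lower in 24m (-0.44 and -0.81). Sirt2 overlaps Nfkbib, an inhibitor of NF-κB, which was lower (-0.41, edgeR adjusted p = 0.00941). Herc4 overlaps Sirt1 on the other strand and Mafg overlaps Sirt7 by 125 bases on the same strand, and neither passed (0.09 and 0.17). Sirt4 and Sirt5 overlap no other gene of the table. The nearest tested genes on each side of Sirt4, Msi1 and Pxn, were both higher in 24m (0.59 and 0.58), the opposite of Sirt4. Beside Sirt5, Gfod1 was higher (2.70) and Nol7 lower (-0.44). Of the genes that flank the other 5 without overlap, Pcyt2, 384 bases from Sirt7 on the same strand (-0.47), Tle6 beside Sirt6 (-0.58) and Ccer2 beside Sirt2 (-0.75) were lower. The remaining flanking genes, among them both beside Sirt1 and both beside Sirt3, did not pass.

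The genes whose profile over the 8 libraries was most like each sirtuin were sought among 13538 tested genes whose mean reached 1 CPM. Likeness is the root mean square difference of centred log2 CPM, so it describes the same age difference that the fit tests. Sncb (β-synuclein) and Fndc4 were closest to Sirt3 (0.02 and 0.04), Ogg1, a DNA glycosylase for oxidised guanine, and Tcf19 to Sirt4 (0.05 each), and Top3b, a topoisomerase, and Arf6 to Sirt5 (0.03 each). Etnk2 and Rmnd5b were closest to Sirt6 (0.04 each), Deaf1 and Zfp414 to Sirt7 (0.04 each), Supt5 and Map7d1 to Sirt2 (0.02 each), and Ddx3y and Suz12 to Sirt1 (0.11 and 0.12). The median difference over all candidates was 0.34 to 0.44 for Sirt2 to Sirt7 and 0.75 for Sirt1.

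Direct regulators of Sirt1 moved in both directions. Rps19bp1, an activator of Sirt1, was at 42.5 to 51.9 CPM in 6m and 20.0 to 30.0 CPM in 24m and fell (log2 fold change -0.98 ± 0.13 SE, edgeR adjusted p = 0.000234). With the length trend removed, Rps19bp1 was at -0.32 and still called (edgeR adjusted p = 0.00335). Ccar2, an inhibitor of Sirt1, did not pass (0.09, adjusted p = 0.375), though it did in 2 of the 20 alternatives. Hic1, which represses transcription of Sirt1, was higher (0.63; not called in DESeq2 on quantile-normalized counts, 0.30), and the corepressor Ncor1 was lower (-0.38), the latter in 12 of the 20 alternatives only. The list of 5 thus had 2 genes higher, 2 lower and 1 not called, with a median of 0.09. Without 6m replicate 1, 3 or 4 or 24m replicate 2 or 3, 1 was lower, as Ncor1 was not called. Ncor1 also lost its call with the replicate block, with library totals and in DESeq2 on quantile-normalized counts. Over this list and the 7 that follow, 43 genes (39.1%) were higher and 25 (22.7%) lower of 110 tested, against 32.7% and 29.9% of all genes, and without 24m replicate 1 these counts were 45 and 34.

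NAD, which sirtuins consume, is made and used by enzymes whose genes were measured as well. Of 16 genes of NAD synthesis, 3 were higher (18.8%), 4 lower (25.0%) and 9 did not pass, beside 32.7% and 29.9% of all genes. Their median log2 fold change was -0.04. The count higher was 5 with library totals and 1 with the GC trend removed or in DESeq2 on quantile-normalized counts. In DESeq2 on quantile-normalized counts 7 were lower. Nmnat2, which makes NAD from nicotinamide mononucleotide in neurons and their axons, rose from 12.8 to 17.5 CPM in 6m to a range of 33.9 to 61.7 in 24m (log2 fold change 1.65 ± 0.18 SE, edgeR adjusted p = 9.34e-05). Nampt, the rate-limiting enzyme of NAD salvage, was at 5.98 to 9.49 CPM in 6m and 8.39 to 13.8 in 24m, which overlap (0.51 ± 0.19 SE, edgeR adjusted p = 0.04), and passed in 9 of the 20 alternatives. In the route from tryptophan, Ido1 was lower (-0.78) and Tdo2 higher (0.55), both of which catalyse its first step, and Acmsd, which diverts this route away from NAD, was lower (-1.09). Ido1 was not called with the length trend removed (-0.24), nor Tdo2 with the GC trend removed (0.29) or in DESeq2 on quantile-normalized counts (0.32).

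Among 12 tested genes of NAD use, transport and phosphorylation, 6 were higher (50.0%), 2 lower (16.7%) and 4 did not pass, beside 32.7% and 29.9% of all genes. Their median was 0.40. The count lower was 1 with library totals, 3 with the length or GC trend removed and 4 in DESeq2 on quantile-normalized counts. Sarm1, an NAD hydrolase that drives axon degeneration, was at 10.9 to 13.1 CPM in 6m and 21.0 to 27.2 CPM in 24m and rose (log2 fold change 1.00 ± 0.11 SE, edgeR adjusted p = 0.000107). Cd38, the main NAD hydrolase of many tissues, was at 1.55 to 1.78 CPM in 6m and 1.75 to 3.23 in 24m (0.52 ± 0.20 SE, edgeR adjusted p = 0.0412), and passed in 10 of the 20 alternatives. Nudt12, which cleaves NADH, rose (1.55), as did Nadk2, the mitochondrial NAD kinase (0.79), while Nnmt, which methylates nicotinamide, fell (-0.96).

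The poly(ADP-ribose) polymerase (PARP) family is the other large group of NAD-consuming enzymes. Of 16 genes 9 were higher (56.2%), 2 lower (12.5%) and 5 did not pass, beside 32.7% and 29.9% of all genes. The median was 0.51. The count lower was 1 without 6m replicate 2 or 3, without 24m replicate 2 or 3, with the replicate block and with library totals. It was 3 with the length or GC trend removed and in DESeq2 on quantile-normalized counts. With library totals 12 were higher. The tankyrases Tnks (2.84 ± 0.36 SE, edgeR adjusted p = 0.000204) and Tnks2 (2.29 ± 0.35 SE, adjusted p = 0.000519) rose the most of the family, followed, among members whose mean reached 1 CPM, by Zc3hav1, an antiviral zinc finger protein (2.01), and Tiparp (1.5). Parp1, the DNA break sensor that accounts for most PARP activity, was at 68.0 to 74.1 CPM in 6m and 78.9 to 94.2 CPM in 24m, a smaller rise (0.30 ± 0.08 SE, edgeR adjusted p = 0.00971) that was not called with the length trend removed (0.07, adjusted p = 0.416). Parp6, named after its values were seen, fell from 279 ± 17.3 to 162 ± 13.3 CPM (SD, n = 4; log2 fold change -0.78).

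**Figure D4:**
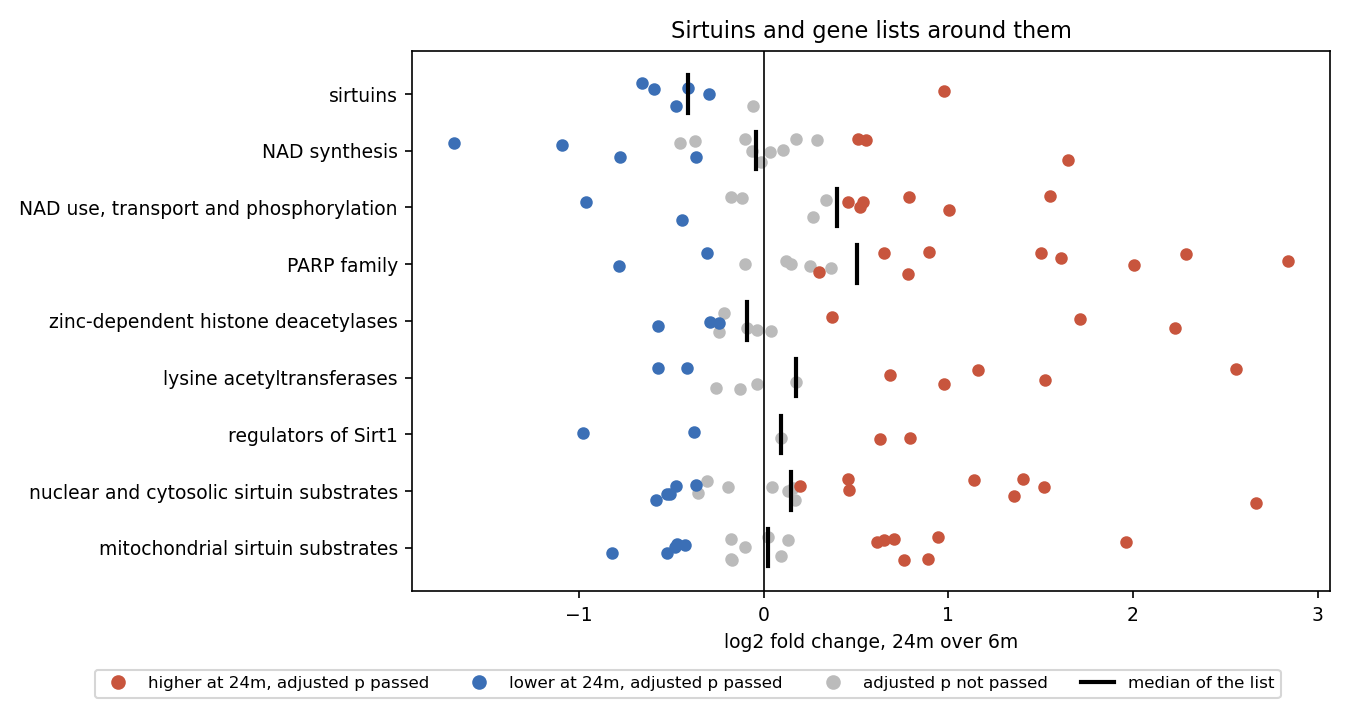
Log2 fold change (24m over 6m) of every tested gene in the sirtuin family and in 8 lists around it, coloured by the edgeR call at the adjusted p (red higher, blue lower, grey not passed), with the median of each list as a black line. The sirtuin median of -0.41 is the lowest of the 9, and that of the PARP family, 0.51, the highest.

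Other enzymes also set lysine acetylation. Among the 11 zinc-dependent histone deacetylases, which need no NAD, 3 were higher, 3 lower (27.3% each, near the 32.7% and 29.9% of all genes) and 5 did not pass (median -0.09). The count lower was 6 with the length trend removed and 1 with library totals or the replicate block. The class IIa members Hdac4 (log2 fold change 2.23 ± 0.28 SE, edgeR adjusted p = 0.00018) and Hdac9 (1.71) rose the most, Hdac11 rose by less (0.37, not called without any one of the 6m libraries or with the replicate block), and Hdac10, a polyamine deacetylase, fell (-0.57). Of 11 lysine acetyltransferases, which add the groups that sirtuins remove, 5 were higher (45.5%), 2 lower (18.2%) and 4 did not pass (median 0.17). The count lower was 1 without 6m replicate 1 or 24m replicate 2 and with library totals, where 7 were higher. It was 3 without 24m replicate 1, with the GC trend removed and in DESeq2 on quantile-normalized counts. Kat6a (2.56 ± 0.33 SE, edgeR adjusted p = 0.000214), Ep300 (1.52), Kat6b (1.16) and Kat7 (0.98) were the 4 that changed the most, all upwards.

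Genes of proteins that sirtuins act on were counted beside 32.7% higher and 29.9% lower of all genes. Of 20 nuclear and cytosolic substrates and their partners, 8 were higher (40.0%), 5 lower (25.0%) and 7 did not pass (median 0.15), with 9 lower once the GC trend was removed. Foxo3, a transcription factor deacetylated by Sirt1 and Sirt2, was at 3.99 to 4.95 CPM in 6m and 15.2 to 38.3 CPM in 24m (log2 fold change 2.67 ± 0.25 SE, edgeR adjusted p = 5.02e-05). Ppargc1a, the coactivator of mitochondrial genes (1.52), Hif1a, the hypoxia factor (1.41), and Gabpa, the DNA-binding partner of the Sirt7 substrate Gabpb1 (1.36), also rose. Of 19 tested mitochondrial substrates 7 were higher (36.8%), 5 lower (26.3%) and 7 did not pass (median 0.02). Without 24m replicate 1 or with the length trend removed, 9 of the 19 were lower. Opa1, a fusion protein of the inner membrane, rose (1.96 ± 0.23 SE, edgeR adjusted p = 0.000136), as did Pdha1, a pyruvate dehydrogenase subunit (0.94), and Glud1, the glutamate dehydrogenase that Sirt4 restrains (0.89). Atp5po, an ATP synthase subunit deacetylated by Sirt3, fell from 530 to 626 CPM in 6m to a range of 255 to 452 in 24m (-0.82 ± 0.17 SE, edgeR adjusted p = 0.00205).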

How the data were processed

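Poly(A) RNA of 8 brains (4 per age) was measured. As the labels and the study's methods state, the authors trimmed reads with Trim Galore 0.4.11, aligned them to GRCm39 with HISAT2 2.1.0 and assigned them to genes with featureCounts; the deposited table holds raw counts per gene and library. Strand use in counting is not given in the sources used here. Genes without an annotation match, 149, held 0.312% of counts. Counts were fitted with edgeR 4.0.16 (R 4.3.3), age as the only term, and changes are log2 fold changes of 24m over 6m. CPM is counts per 1000000, and log2 CPM for profiles used a prior count of 2. Intervals of fold changes use the t distribution of the fit.

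Chi-square over genes gave 8.17 to 424 per degree of freedom between libraries of 1 age, so each library counted as 1 animal. Exact permutation was used for measures with 1 value per library. Lists and members were chosen with earlier results of these data known, and Sirt6 was named by the study from these libraries. Named genes were all sirtuins, Ccar2, Rps19bp1, Nampt, Nmnat2, Sarm1, Cd38 and Parp1, in each other list up to 4 genes with the largest change at the adjusted p and a mean of at least 1 CPM, the 2 genes most like each sirtuin, and overlapping or neighbouring genes, except for 1 that is not reported here. In simulated data for this comparison over 16730 genes, edgeR recovered 81.5% of 200 genes set to change by 1 on the log2 scale, with 6 unchanged genes called, and 0% of 200 set to change by 0.5, both at the adjusted p, which is stricter when so few genes change than in the data. The alternatives covered scaling factors, DESeq2 1.42.0, limma-voom (limma 3.58.1), other filters, 1 library left out, a replicate block, removal of length or GC trends, thinning, and other lengths.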

Additional observations from a re-analysis of the deposited data

Results flagged for a closer look

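In 6 of 106 groups of 4 libraries examined, 1 library lay far from the other three by Dixon's criterion, which chance alone gives in about 1 group in 20. For Sirt2 in 6m, replicate 4 was the high one at 232 CPM. Tdo2 in 24m was low in replicate 3 at 1.08 CPM, and Parp1 in 6m was low in replicate 1 at 68.0 CPM. The share of mitochondrially encoded genes in 24m was high in replicate 2 at 3.69%. In 24m replicate 1, the total of 1.03e+08 counts and the summed astrocyte marker level of 5076 CPM were high.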

How the results depend on the processing

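Sirt3 and Sirt7 passed the adjusted p in all 20 alternatives, Sirt4 and Sirt5 in 19, Sirt1 in 16 and Sirt6 in 11. With library totals in place of TMM factors, the median of all genes moved from -0.0034 to 0.21 and 75.7% of called genes were higher instead of 58.1%, with 1746 genes lower instead of 3058. Of the sirtuins, 2 were then higher and 3 lower at the adjusted p, and 0 lower at both thresholds, with Sirt2 at 0.16. DESeq2 on quantile-normalized counts, chosen after seeing the data, gave 47.9% higher. With the GC trend removed, 1 sirtuin was lower at both thresholds, and with the length trend removed or in DESeq2 on quantile-normalized counts 3 were. Leaving out 1 library gave 0 to 1 sirtuins higher at the adjusted p and at both thresholds, and 0 to 2 lower at both thresholds, the 0 without 24m replicate 4. Over the lists around the sirtuins, 43 genes were higher and 25 lower, and no alternative moved either total by over 1.5 times, although counts of single lists moved more. Per length, Sirt6 over Sirt5 turned to -0.27 with the longest transcript and Sirt4 over Sirt6 to -0.77 with the canonical transcript, the latter chosen after seeing the data.

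Replicate numbers did not pair the animals: correlations of deviations between libraries of the same number were 0.27, 0.14, 0.08 and -0.35. With the replicate block, 1 sirtuin was higher and 4 lower at the adjusted p, Sirt6 being lost (-0.30, edgeR adjusted p = 0.0637), and 4112 genes were higher and 3130 lower at both thresholds. The cause of these shifts was not tested. Sirt1 had 61 to 426 counts per library and every other sirtuin at least 740; thinned to the smallest library, Sirt1 was at 1.00 (edgeR adjusted p = 0.0201).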
